A study of Mus musculus with 629 samples.

Results

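Mx1 is switched on by type I interferon in nearly every cell type, and the macrophages described here were those in which at least 1 raw Mx1 count was recorded. Single brain cells of C57BL/6 mice carrying an SM22-Cre driver and a Rosa26 stop-tdTomato reporter, a driver active in smooth muscle, had been sorted by flow cytometry into 384-well plates and sequenced by SMART-seq2, a full-length method without molecular identifiers. The mice were adult and differed at Notch3: knockout (KO), heterozygous (Het) or wild type (WT). Of 400 cells labelled macrophages, 68 held an Mx1 count and 332 did not, among 629 cells in all. The cells were therefore chosen on their measured Mx1 counts, and every level of Mx1 below describes that choice. No label names an animal, so cells of 1 genotype count as 1 sample; there are no replicates, no test was run, and genotype and plate are largely tied together. A pool below means the cells of 1 genotype on 1 plate, and the 400 macrophages came from 8 pools.

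Interferon bound to its receptor activates the kinases Jak1 and Tyk2, and the transcription factors they switch on bind interferon-stimulated response elements in the promoters of interferon-induced genes. Mx1 encodes a dynamin-like GTPase that restricts influenza and related viruses; in C57BL/6 mice the gene carries an internal deletion and gives no functional protein, though its transcript is still induced. Ifit1, Ifit2 and Ifit3 encode tetratricopeptide proteins that bind foreign RNA or its binding partners, and they are among the most strongly induced genes of the response. Macrophages of the brain's borders and vessels carry Mrc1 and Cd163, and microglia carry Tmem119 and P2ry12.

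The promoters of 4 genes are shown because they carry the element in question. Windows run from 250 bases before to 50 bases after the annotated start, from RefSeq on GRCm38.p6, 5′ to 3′ on the plus strand, and capitals mark each match to the core of the element, GAAANNGAAA, or its reverse, TTTCNNTTTC. Ifit1 lies at chr19:34640639-34640938 and Ifit3 at chr19:34583279-34583578. Gm12250, which encodes the immunity-related GTPase Irgb10, lies at chr11:58183593-58183892, and Ogfr, the opioid growth factor receptor, at chr2:180589157-180589456.
Ifit1: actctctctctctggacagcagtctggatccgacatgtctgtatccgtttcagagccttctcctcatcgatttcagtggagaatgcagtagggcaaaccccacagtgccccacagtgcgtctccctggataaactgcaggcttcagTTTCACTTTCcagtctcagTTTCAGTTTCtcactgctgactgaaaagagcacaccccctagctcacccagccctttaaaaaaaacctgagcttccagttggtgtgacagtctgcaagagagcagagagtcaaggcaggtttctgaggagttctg
Ifit3: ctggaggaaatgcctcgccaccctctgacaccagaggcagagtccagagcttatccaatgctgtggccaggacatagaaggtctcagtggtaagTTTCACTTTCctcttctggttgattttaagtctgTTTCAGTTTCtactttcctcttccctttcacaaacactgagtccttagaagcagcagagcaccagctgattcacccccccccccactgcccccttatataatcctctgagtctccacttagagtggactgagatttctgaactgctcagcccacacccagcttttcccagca
Gm12250: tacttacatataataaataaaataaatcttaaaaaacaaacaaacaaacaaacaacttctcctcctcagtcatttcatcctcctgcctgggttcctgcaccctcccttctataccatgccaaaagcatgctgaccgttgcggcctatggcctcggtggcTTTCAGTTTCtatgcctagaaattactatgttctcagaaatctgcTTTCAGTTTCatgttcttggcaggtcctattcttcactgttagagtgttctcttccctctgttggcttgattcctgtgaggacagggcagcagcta
Ogfr: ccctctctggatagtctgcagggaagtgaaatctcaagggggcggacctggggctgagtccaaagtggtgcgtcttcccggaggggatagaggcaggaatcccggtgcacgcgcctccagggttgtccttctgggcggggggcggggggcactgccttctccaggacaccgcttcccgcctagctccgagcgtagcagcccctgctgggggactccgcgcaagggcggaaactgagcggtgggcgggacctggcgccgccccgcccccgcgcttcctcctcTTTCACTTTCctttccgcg
In Ifit1 the matches begin 104 and 85 bases before the start, in Ifit3 156 and 122 bases before it, and in Gm12250 91 and 46 bases before it. In Ogfr the single match begins 31 bases after the start. Neither of the 2 Ifit2 windows held a match. Both strands were searched, and of 27025 genes with a window 1079 (3.99%) held a match.

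Cells with an Mx1 count made up 17.0% of all macrophages (95% exact binomial interval 13.4 to 21.0%). The KO pool of plate 060s stood highest, with 32 of 98 cells (32.7%, interval 23.5 to 42.9%), and the KO pool of plate 524s held 2 of 21 (9.52%, interval 1.17 to 30.4%). Among Het pools, plate 524s held 1 of 16 (6.25%) and plate 529s 3 of 19 (15.8%). Plate 056s held 0 of 35 Het macrophages, for which the exact interval ends at 10.0% and the limit of 3 counts in 35 cells at 8.57%. Among WT pools, plate 059s held 5 of 47 (10.6%), plate 529s 4 of 26 (15.4%) and plate 530s 21 of 138 (15.2%, interval 9.67 to 22.3%). Summed over plates this gave 34 of 119 KO (28.6%), 4 of 70 Het (5.71%) and 30 of 211 WT macrophages (14.2%). The intervals cover counting error only.

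The deepest pool held no cell with Mx1. Depth here is a cell's counts outside Rn18s and the ERCC spike-ins, and the Het pool of plate 056s had the highest median, 891311, while the KO pool of plate 060s had 116105. Inside that KO pool the median was 140516 in Mx1 cells and 87445.5 in others. In the WT pools it was 188012 and 370328 on plate 059s, and 214433 and 215305 on plate 530s. Of cells with at least 100000 counts, 25 of 56 held Mx1 in the KO pool of plate 060s (44.6%). In the WT pool of plate 530s 18 of 121 did (14.9%). The part of depth was not tested. After every cell was thinned to 50000 counts, which left out 25 macrophages, the share was 13.3% over all pools, 27.4% in the KO pool of plate 060s and 9.77% in the WT pool of plate 530s. Of cells labelled microglia, 41 of 215 held Mx1 (19.1%, interval 14.1 to 25.0%), and again 0 of 15 did on plate 056s. Without the KO pool of plate 060s the share of macrophages was 11.9%.

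**Figure D1:**
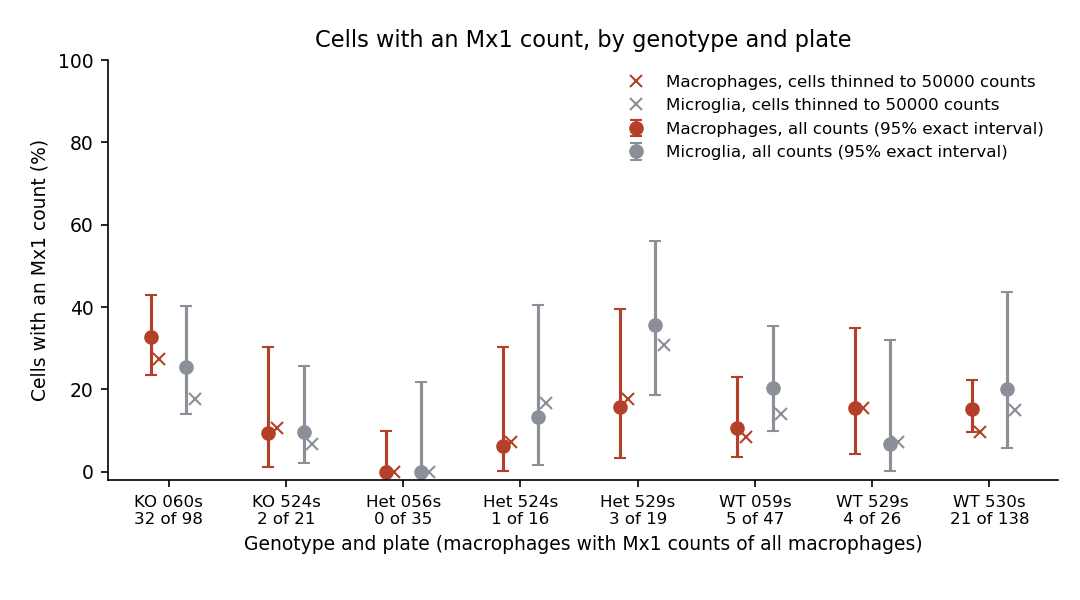
Percent of cells with at least 1 Mx1 count in each genotype and plate, for macrophages (red) and microglia (grey); circles are all counts with 95% exact intervals, crosses are cells thinned to 50000 counts. Macrophages of the KO pool on plate 060s stand at 32.7%, and plate 056s is at 0 for both cell types.

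The cells differed widely in how much Mx1 they held. Of the 68 cells, 36 held 10 or more counts, 14 held 2 to 9 and 18 held exactly 1. The 5298 Mx1 counts were uneven, and the highest cell, of 847 counts, supplied 16.0% of them. In the KO pool of plate 060s Mx1 ran from 6.54 to 4679.5 CPM with a median of 92.2, in the WT pool of plate 059s from 1.99 to 558 with a median of 244, and in the WT pool of plate 530s from 0.862 to 1075 with a median of 22.2. The total behind CPM leaves out ERCC and Rn18s throughout.

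Over all macrophages, cells with exactly 1 Mx1 count lay near cells with none in the interferon list, and held an Ifit count in 50.0% of cells against 32.8%. Any count of Ifit1, Ifit2 or Ifit3 was present in 26 of 36 cells with 10 or more Mx1 counts, in 9 of 14 with 2 to 9, in 9 of 18 with 1, and in 109 of 332 with none. Inside pools the order was less regular. In the same order the shares were 75.0, 77.8, 42.9 and 42.4% in the KO pool of plate 060s. In the WT pool of plate 530s they were 50.0, 40.0, 50.0 and 29.9%. The KO pool of plate 060s supplied 16 of the 36 cells with 10 or more counts. An interferon list of 157 genes was compiled, of which 153 besides Mx1 are in the table. After thinning to 50000 counts, a median of 60.5 of these genes was detected in cells with 10 or more Mx1 counts (range 23 to 114), 41.5 with 2 to 9 (32 to 69), 35.0 with 1 (24 to 58) and 34.0 with none (17 to 84). The summed level of the list had medians of 21969, 13513, 10545 and 10464 CPM in the same order. The number of all genes detected differed little, with medians of 2776.5, 2862, 2689.5 and 2669.

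Interferon genes were also present in many cells without Mx1. In the KO pool of plate 060s, 10 of 30 thinned Mx1 cells lay above every cell without Mx1, and 12 of 54 cells without Mx1 lay above the median Mx1 cell. In the WT pools the groups overlapped fully: no Mx1 cell lay above every cell without, on plate 059s (medians 57.0 and 31.0 genes) or on plate 530s (39.0 and 32.0 genes). One KO cell with 10 or more counts had only 23 list genes, fewer than the median cell without Mx1.

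**Figure D2:**
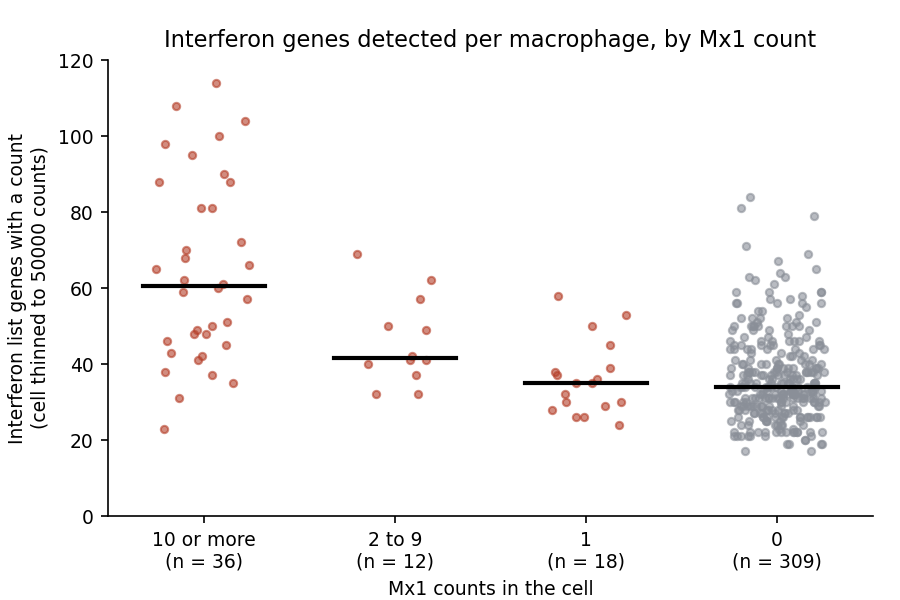
Number of interferon list genes detected in each macrophage after thinning to 50000 counts, by the cell's Mx1 count; each point is a cell, red with and grey without Mx1 counts, and black lines are medians. The median is 60.5 in cells with 10 or more counts, 35.0 in cells with 1 count and 34.0 in cells with none.

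Perivascular markers were high in the cells, whose label says only macrophages. The summed level of 13 perivascular macrophage markers had a median of 30324 CPM in Mx1 macrophages, 31317 CPM in macrophages without Mx1 and 13313 CPM in microglia. The sum of 10 microglia markers was 6579 CPM, 6472 CPM and 38161 CPM in the same order, and it exceeded the perivascular sum in 2 of 68 Mx1 cells and 4 of 332 others. On plate 059s the microglia sum had a median of 10366 CPM in the 5 Mx1 macrophages and 7168 CPM in the 42 others. There the 14 measured genes of another microglia marker list had a median log2 ratio of 0.87. The part of this in the calls was not tested. Notch3 itself had no count in the 58 Mx1 cells compared below and a count in 2 of the 225 others, so it does not check the genotype in these cells.

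Genes that go with Mx1 were sought inside pools. The 3 pools with at least 5 cells of each class were used: KO of plate 060s (32 cells with Mx1, 66 without), WT of plate 059s (5 and 42) and WT of plate 530s (21 and 117). Counts were summed over each class. A gene was called higher when it was higher in Mx1 cells in all 3 pools, with a median log2 ratio of CPM + 1 of at least 1, a mean of at least 20 CPM and a count in at least 25% of Mx1 cells; the mirror rule gave genes called lower. Of 4992 measured genes besides Mx1, 84 were called higher (1.68%) and 309 lower (6.19%). Interferon genes, meaning the list and genes of its families by symbol, supplied 26 of the 84 and none of the 309, with 103 measured. The other 58 came from 4889 measured genes beyond interferon (1.19%). Beyond interferon means only outside that list and those families. Whether interferon induces any of these genes was not tested. Scaled by DESeq2 size factors, which shift the median of all genes from -0.12 to 0.02, the split was 145 higher and 231 lower. With 1 pool left out the rule asks less, and between 201 and 311 genes were called higher and between 310 and 993 lower. Since the cells were chosen on the same counts, these are descriptions.

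Interferon genes were higher as a group, most in the KO pool of plate 060s. Their median log2 ratio was 1.47 in the KO pool of plate 060s, 0.34 in the WT pool of plate 059s and 0.36 in the WT pool of plate 530s, against -0.04, -0.46 and -0.05 over all measured genes. In all 3 pools 41 of 103 interferon genes were higher and 1 was lower, against 453 and 862 of all 4992. Over the list itself, with 96 measured members, the median was 0.74 over the 3 pools and 0.29 without the KO pool of plate 060s. No interferon ligand was measured among 20 in the table, and 19 of them had no count in the 58 cells.

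The Ifit genes led, though with a gap. Ifit1 had 338 CPM in Mx1 cells and 16.0 CPM in cells without in the KO pool of plate 060s, 100.2 and 7.56 CPM in the WT pool of plate 059s, and 11.0 and 2.24 CPM in the WT pool of plate 530s (median log2 ratio 3.56). Only 19 of 58 Mx1 cells held it, against 16 of 225 without. Ifit2 had 918 and 15.5 CPM, 186 and 39.1 CPM, and 81.3 and 9.14 CPM in the same pools (3.02). Ifit3 had 468 and 43.5 CPM in the KO pool and 92.3 and 30.6 CPM on plate 530s, but 31.9 and 32.3 CPM on plate 059s, and it was not called. Counts of near-identical family members, such as Ifit1 and Ifit3 with their neighbouring copies, Phf11b with Phf11d and the Ifi200 genes, may be shared among copies.

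The other called interferon genes cover sensing, signalling and effector steps. Of the effectors, Tor3a, an interferon-induced torsin ATPase, had a median log2 ratio of 2.74, Iigp1, a GTPase that attacks parasite vacuoles, 2.52, Slfn5 2.35, and Oasl1, which binds Irf7 transcripts, 1.61. Of the sensors, Ddx58, the RNA helicase RIG-I, had 2.05, and the DNA-binding Pyhin genes Ifi207 and Ifi206 had 1.79 and 1.56. Irf7, the factor that amplifies interferon genes, had 379 CPM in Mx1 cells and 128 CPM in others in the KO pool of plate 060s, 123 and 36.2 CPM on plate 059s and 52.6 and 44.7 CPM on plate 530s. Usp18, which removes ISG15 and restrains the receptor, had 342 and 21.6 CPM, 111 and 22.2 CPM, and 40.8 and 22.8 CPM. Phf11b and Phf11d, Nmi and Herc6, the mouse ISG15 ligase, stood between 1.64 and 1.85.

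The median log2 ratio was 0.07 over receptor signalling genes and 0.13 over MHC class I and immunoproteasome genes, against -0.12 over all measured genes. Of 12 measured receptor signalling genes, 2 were called higher, Usp18 among them, against 1.68% of all genes, and none lower. Both are among the 26 interferon genes above, and Ifngr1 was at 0.09. Of 20 nucleic acid sensing genes 4 were called higher, against 1.68% of all genes, and none lower: Ddx58, Irf7, Adar, an RNA editing enzyme (1.27), and Tlr13, which senses bacterial ribosomal RNA (1.29). Of the 27 genes of that list, 10 are interferon genes, and all of the 4 but Tlr13 are among the 26 above. One cell supplied 43.2% of the Tlr13 counts of the Mx1 cells. Of 17 MHC class I and immunoproteasome genes only Psmb9, an immunoproteasome subunit, was called higher (1.09), and H2-D1 and B2m were at -0.23 and 0.16. Psmb9 is outside the interferon list and families, so it counts among the 58 genes beyond interferon by list and symbol only. Exons of Psmb9 overlap those of Tap1 on the other strand, and those of Irf7 overlap Phrf1, so their reads cannot be told apart without strand. Other genes named in this report overlap a gene on the other strand too, among them Adar (Chrnb2), Dop1a (Pgm3), Ttc33 (Ptger4), Phf1 (Cuta) and Snx32 (Cfl1). Herc6, Scaf8 and Tmem260 overlap predicted genes on the same strand.

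MHC class II genes were not called, 0 of 7. Cd74, the invariant chain, had 1883 CPM in Mx1 cells and 97.5 CPM in others on plate 059s, but 50.1 and 54.8 CPM in the KO pool of plate 060s and 44.6 and 69.4 CPM on plate 530s, and 1 cell supplied 80.9% of its counts in Mx1 cells. The part of single cells in the 5-cell class of plate 059s was not tested.

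Beyond interferon, the 15 genes with the largest ratios had no shared function that a list names. Cstf3, a subunit of the polyadenylation machinery, led by median log2 ratio at 3.34, with 24.0 and 10.9 CPM in the KO pool of plate 060s, 396 and 29.1 CPM on plate 059s, and 50.5 and 4.07 CPM on plate 530s. One cell supplied 51.2% of its counts. Dop1a followed at 3.03, Serpine2, a protease inhibitor, at 2.61, Ublcp1, a proteasome phosphatase, at 2.37, and Scaf8, an RNA polymerase II associated factor, at 1.98. Mocs1, Thap7, Vps45, Zfp451, Ttc33, Phf20l1, Cpt2, Phf1 and Tmem260 ran between 1.91 and 1.38. Gm12250, whose promoter is shown above and which was chosen after its values were seen, had 101.0 and 12.6 CPM, 49.7 and 6.04 CPM, and 22.6 and 8.49 CPM in the same pools (2.85). It is absent from the interferon list and its symbol matches no family, although it encodes an immunity-related GTPase. It was higher in the plate 529s pools too, with 180 CPM in Mx1 cells, 1 of 3 holding it, against 0 CPM in 16 others for Het, and with 55.2 and 12.5 CPM for WT. Over the 58 genes the median share of cells holding a gene was 36.2% of Mx1 cells and 27.6% of others. Some ratios rest on few cells. On plate 059s, 1 of 5 Mx1 cells held each of Thap7, Vps45, Zfp451, Ttc33 and Cpt2. On plate 530s, 7 of 21 Mx1 cells and 48 of 117 others held Mocs1, and 4 of 21 and 28 of 117 held Thap7.

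Without each gene's highest cell in each class and pool, 9 of the 26 interferon genes and 3 of the 58 others were still called higher, and the interferon list median was 0.35, against -0.55 over all genes. The 9 were Gm4951, Ifi206, Ifi207, Ifi47, Ifit1, Ifit2, Slfn5, Usp18 and Xaf1, and the 3 were Prdx6, Scaf8 and Selenom. Gm4951, Ifi47, Prdx6 and Selenom were chosen after their values were seen. Leaving out 1 cell takes a larger share of the Mx1 class, with 58 cells, than of the 225 others.

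**Figure D3:**
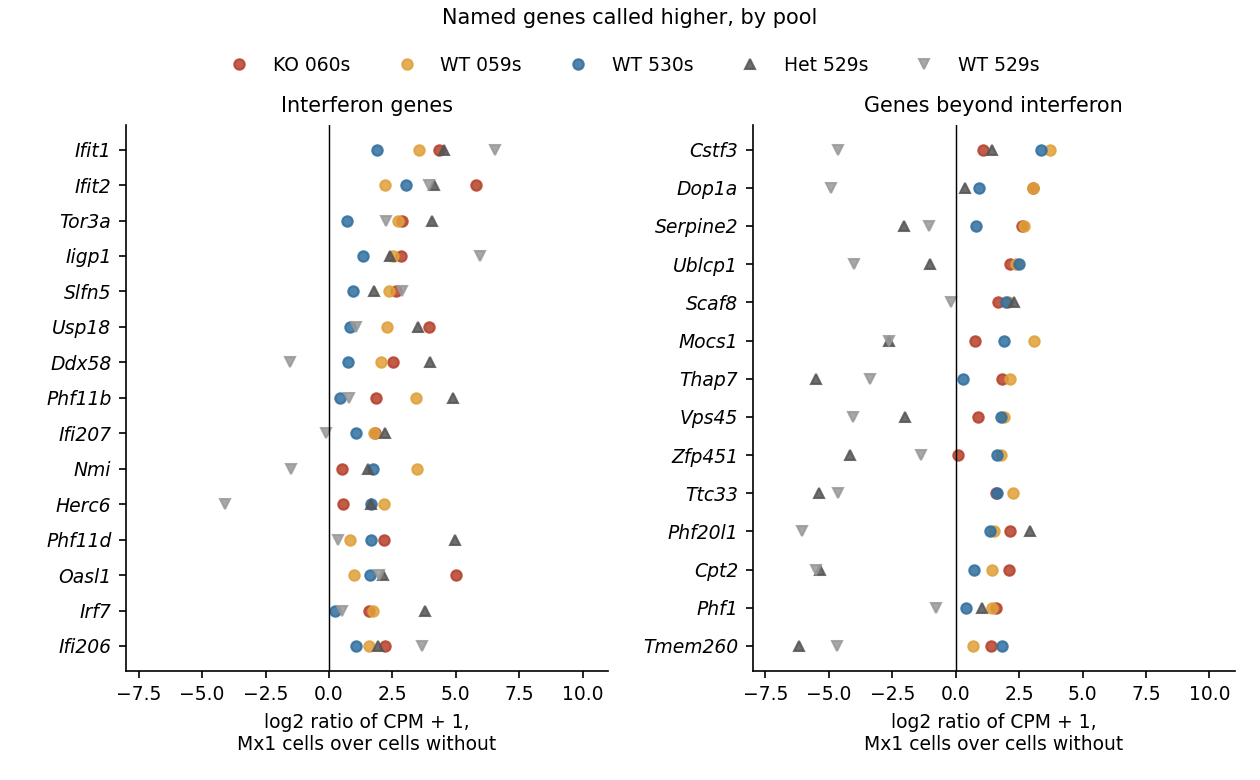
Log2 ratio of CPM + 1, Mx1 macrophages over macrophages without Mx1, for the 15 named interferon genes (left) and 14 named genes beyond interferon (right) with the largest median ratios; circles are the 3 pools the rule used, triangles the plate 529s pools it did not use. The triangles lie mostly right of 0 on the left panel and mostly left of 0 on the right panel.

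Plate 529s gave cells the rule had not used: a Het pool with 3 Mx1 cells and 16 others and a WT pool with 4 and 22. Of the 26 interferon genes called higher, 15 were higher in both pools (57.7%), against 15.8% of all measured genes. Of all 103 measured interferon genes, called or not, 54 were (52.4%). Of the 58 genes beyond interferon, 7 were (12.1%). Of the 309 genes called lower, 114 were lower in both (36.9%), against 37.2% of all measured genes. The interferon genes had median log2 ratios of 2.17 in the Het pool and 0.57 in the WT pool, and the others -0.04 and -2.22, against -0.48 and -0.53 over all measured genes. The 3 Het cells were uneven, with 69331, 32077 and 18067 CPM of the interferon list and 813, 66 and 22 Ifit counts. The part of the highest cell in these ratios was not tested. Over all 10 Mx1 cells outside the 3 pools, 25 of the 26 interferon genes and 27 of the 58 others were higher than in the 72 other cells of their pools, against 2332 of all 4992 measured genes.

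**Figure D4:**
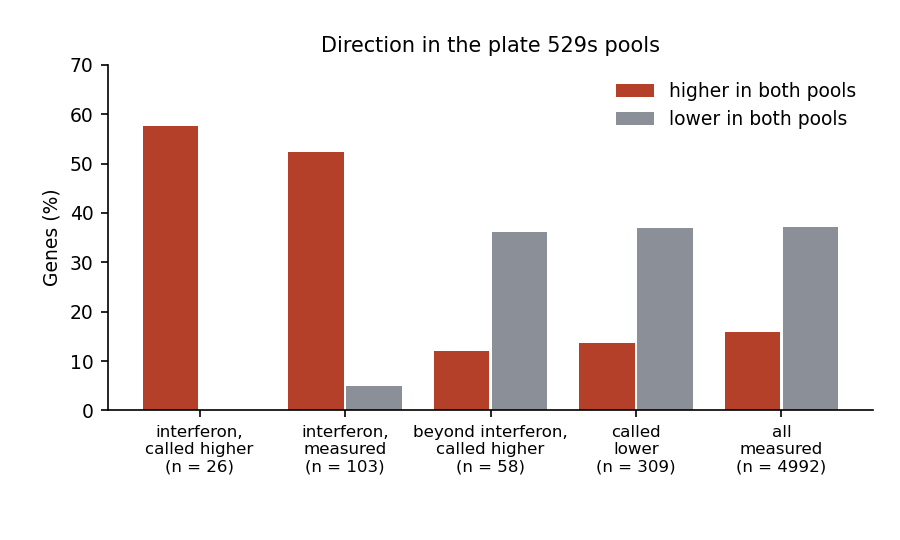
Percent of genes in each set that were higher (red) or lower (grey) in Mx1 cells in both the Het and the WT pool of plate 529s, which the rule did not use; n is the number of genes in the set. Interferon genes called higher reach 57.7%, genes beyond interferon called higher 12.1% and all measured genes 15.8%.

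Among the genes ranked, Ogfr was the most like Mx1 of those outside the interferon list and families. Likeness is the mean over the 3 pools of Spearman's correlation with Mx1 CPM over cells (98, 47 and 138 cells), which share plates and depth. Ranked were 5042 genes with a count in at least 25% of Mx1 cells, and their median was 0.0095. This filter looks at the Mx1 cells only, so genes sparse in them could not be ranked. The highest were Ifit1 (0.404), Ifi206 (0.370), Xaf1 (0.349), Ifi209 (0.328) and Ifi207 (0.322), and beyond interferon Ogfr (0.265), Slc15a3, an endosomal peptide transporter (0.256), Prdx4 (0.239), Sqor (0.238) and Usp4 (0.236), all weak. Ogfr was not called, with a median log2 ratio of 0.88, but it had 390 and 113 CPM in the KO pool of plate 060s, 144 and 78.7 CPM on plate 059s, and 247 and 133 CPM on plate 530s. On plate 529s it had 299 and 140 CPM in Het cells and 399 and 167 CPM in WT cells, so it was higher in all 5 pools.

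Of the 103 interferon genes 24 were higher in all 5 pools (23.3%), and of the 4889 genes beyond interferon 52 were (1.06%). Mx1 microglia, a separate set of cells, were compared in the same way over 3 pools (Het of plate 529s with 10 and 18 cells, KO of plate 060s with 12 and 35, WT of plate 059s with 9 and 35). There 188 of 6599 genes were called higher (2.85%) and 279 lower (4.23%), and 11 of 94 interferon genes were among those called higher. Of the 19 interferon genes called higher in macrophages and measured in microglia, 5 were called higher again, and of the 49 such genes beyond interferon 2 were, Vps45 and Zfp810. Zfp810 was chosen after its values were seen. Higher in all 5 macrophage and all 3 microglia pools were 12 interferon genes (11.7%), among them Ifit1, Usp18 and Irf7, and 7 of the 4889 others (0.143%): Atp2c1, Ogfr, Pfkl, Plekhf2, Prrc2a, Themis2 and Zfp810, picked by that count.

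The genes called lower were mostly sparse. Mad1l1, a mitotic checkpoint gene, led at a median log2 ratio of -5.09, with 1.14 and 72.2 CPM in the KO pool of plate 060s, 0 and 35.5 CPM on plate 059s, and 28.6 and 113 CPM on plate 530s; 10 of 58 Mx1 cells and 59 of 225 others held it. On plate 530s, though, 8 of 21 Mx1 cells and 36 of 117 others held Mad1l1. Plcg1, Gga2, Ctnnbl1, Samd8, Asb8, Herc2, Cep250, Septin11, Snx32, Tprgl, Arhgef12, Lcmt1, Zfc3h1 and Evi5 ran from -4.51 to -3.25. Of these, Plcg1, Gga2, Ctnnbl1, Asb8, Herc2, Tprgl, Arhgef12 and Evi5 had no count in the 5 Mx1 cells of plate 059s. Those 5 cells had a median depth of 188012 counts, against 370328 in the other macrophages there. A single cell without Mx1 on plate 530s reached 10068 CPM of Gga2. The median Mx1 share of cells holding a gene called lower was 29.3%, against 34.2% in other cells.

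Among marker genes of perivascular macrophages, 1 of 18 was called lower, against 6.19% of all measured genes, and none higher. This was Cd209f, a C-type lectin, with 1070.2 and 1261 CPM in the KO pool of plate 060s, 2.23 and 431 CPM on plate 059s, and 236 and 861 CPM on plate 530s (-1.86). These are summed levels: in the KO pool of plate 060s the median Mx1 cell had 535 CPM and the median other cell 243 CPM, and 25 of 32 and 45 of 66 cells held it. On plate 529s it had 265 and 431 CPM in Het cells and 0 and 114 CPM in WT cells, so it was lower in all 5 pools, as 6.27% of all measured genes were. Its neighbour Cd209g, chosen after its values were seen, was lower in all 5 pools as well, with 186 and 420 CPM in the KO pool of plate 060s and 62.8 and 123 CPM on plate 530s. A larger share of Mx1 cells held it all the same, 18 of 32 Mx1 cells and 30 of 66 others in the KO pool, and 12 of 21 and 51 of 117 on plate 530s. Reads may be shared between these close relatives. Mrc1 and Stab1 were at 0.13 and -0.36.

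Other lists had few or no called members, to be read against the 1.68% of all genes called higher and 6.19% lower. Of 11 immediate early and dissociation stress genes 2 were called lower, Zfp36, which promotes decay of cytokine transcripts (-2.78), and Dnajb1 (-1.16); Zfp36 was higher in Mx1 cells on plate 529s, with 241 and 159 CPM in Het cells and 2559.8 and 749 CPM in WT cells. None of 8 inflammatory genes, 23 lysosomal, 17 phagocytic, 13 cholesterol, 14 iron, 11 glycolytic, 18 nuclear oxidative phosphorylation or 9 disease-associated microglia genes was called. Of 11 complement genes C4b was called lower (-1.10), a call kept in 6 of 19 alternatives, of 9 Notch pathway genes Psen2 (-3.22), of 12 cell death genes 2 were called lower, Ripk1 (-1.30) among them, and the interferon gene Xaf1 higher (1.54), and of 8 cell cycle genes Rrm1 was called higher (1.28). Of 14 microglia markers Crybb1 was called higher (1.18), and of 39 ribosomal protein genes Rpl7l1 was called lower (-2.18).

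Few markers of other cells passed the floors. No mural, endothelial, fibroblast or neuronal marker was measured. Of 2 measured lymphocyte markers Cd79b was called lower (-1.57). The single measured monocyte and neutrophil marker was Ngp (-0.42), the 3 dendritic cell markers included Bst2 (0.11) and Zbtb46 (0.92), the single astrocyte marker was Aldoc (1.06) and the 4 oligodendrocyte markers included Mbp (-0.09). Apart from Cd79b none of these was called, though several were widely held: Bst2 in 58 of 58 Mx1 cells and 214 of 225 others, Mbp in 48 and 176, and Ngp in 33 and 141.

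The core of the response element was more frequent near interferon genes than near others. It was found in 8 of the 20 interferon genes called higher that have a promoter window (40.0%) and in 30 of 63 other measured interferon genes (47.6%). Of the genes beyond interferon called higher it was found in 4 of 49 (8.16%), which were Bcor, Gm12250, Ncoa7 and Slc25a22, chosen here by that match. Gm12250, an immunity-related GTPase gene, counts as beyond interferon by list and symbol only. Of the genes called lower 11 of 247 held it (4.45%), against 178 of 4045 measured genes (4.40%). A match in these letters is not a shown binding site.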

How the data were processed

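The authors deposited 1 table of raw counts, whole numbers of reads per gene and cell, for 629 cells, 53546 gene symbols and 92 ERCC spike-ins. Per the submitters' processing notes STAR was used; no source used here gives its version, the genome build, the annotation, the strand setting or the cell filters. Column names tied every cell to its labels. ERCC counts (1.22% of all counts) and Rn18s (40.3% of macrophage gene counts) were left out of every total. Reads without molecular identifiers are not independent molecules.

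From the counts, CPM, shares with exact 95% intervals and log2 ratios were computed with scipy 1.17.1, numpy 2.4.6 and pandas 2.3.3 under Python 3.11.15, figures with matplotlib 3.10.9, and scaling alternatives with R 4.3.3, edgeR 4.0.16 TMM factors and DESeq2 1.42.0 size factors. A ratio on CPM + 1 understates changes of low genes. Depth was 20362 counts or more in every Mx1 macrophage and 1488 or more in the others. Promoter windows came from RefSeq and exon overlaps from GENCODE M21.

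Named genes were Mx1 and the Ifit genes, the 15 called genes of each kind with the largest median ratios, called members of other lists or else their 2 highest, and the 5 most like Mx1. Predicted genes and Xist were counted only. A few genes that this rule takes are counted but not reported here. The cells and the 30 lists were chosen with earlier results of these data known. The comparison was also run on simulated cells, in which genes varied independently and with the same spread. That run cannot tell how many calls in the real cells are false.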

Additional observations from a re-analysis of the deposited data

Results flagged for a closer look

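Asb8, a subunit of ubiquitin ligases, had opposite directions in the 2 cell types: it was lower in Mx1 macrophages in all 3 pools (median log2 ratio -4.00) and higher in Mx1 microglia in all 3 pools (0.35). The difference was not tested, and in macrophages of the KO pool of plate 060s the levels were 45.0 and 48.6 CPM. Outside the comparisons, 1 of the 14 cells labelled 7 held Mx1, with 259 counts (1020.3 CPM).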

How the results depend on the processing

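The 84 genes called higher, 309 lower and 58 higher beyond interferon moved by over 1.5 times under several settings. Called higher, lower and higher beyond interferon were 199, 1722 and 166 genes without floors, 218, 525 and 182 at a 1.5-fold limit, 32, 185 and 13 with at least 3 cells of each class (5 pools), 14, 875 and 5 without each gene's highest cell, and 368, 625 and 302 with at least 10 Mx1 counts. Called higher and higher beyond interferon were 145 and 114 with DESeq2 size factors, 201 and 160 with at least 8 cells of each class, and 258 and 200 with at least 2 Mx1 counts. Higher beyond interferon were 89 in cells of at least 100000 counts, higher were 128 against cells also without Ifit counts, lower were 148 after thinning, and lower and higher beyond interferon were 110 and 33 with at least 2 of 4 markers. Some of these settings keep only 2 pools, which asks less of the rule. The interferon median of 0.74 stayed positive under all 19 alternatives, at 0.35 without each gene's highest cell, where the median of all genes was -0.55, 1.40 with at least 2 Mx1 counts, 1.68 with at least 10 and 1.83 with at least 2 of 4 markers.

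The Mx1 share of 17.0% was 13.3% after thinning, 12.5% with at least 2 counts and 9.0% with at least 10. Leaving out a pool in turn gave 11.9 to 18.6% for the share, 201 to 311 genes higher, 310 to 993 lower, 160 to 291 higher beyond interferon, and 0.29 to 0.93 for the interferon median. Of the 26 interferon genes 20 were called in at least 15 of the 19 alternatives, of the 58 others 10. Among the 19, the 1.5-fold limit and the run without floors only loosen the rule, so they keep every call. The cause of these shifts was not tested. No paired analysis was possible because no label gives replicate numbers shared by groups of animals; the classes were compared inside pools, without a test. Sparse counts and 5 to 32 Mx1 cells a pool limit what can be seen.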

Other observations

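Cd74 was higher in microglia with Mx1 counts than in microglia without in all 3 microglia pools, with 438 and 91.7 CPM in the Het pool of plate 529s, 296 and 36.8 CPM in the KO pool of plate 060s, and 592 and 38.5 CPM in the WT pool of plate 059s. It was picked after its values were seen.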
